A study of Mus musculus with 10 samples.

Results

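In 3 of 10 RNA-seq profiles of mouse fetal ovarian somatic cells, the level of Chgb, the gene of the secretory granule protein chromogranin B, exceeded 8 on the deposited log2 scale. These 3 embryos, chosen by that measured value, make up the Chgb-rich set, and the other 7 make up the Chgb-poor set. The values are regularised log2 expression (rlog), in which differences of weakly expressed genes are shrunk towards 0, and the table holds 13578 genes. Each profile came from 1 female embryo at embryonic day 13.5, of genotype Gulo-/- on a C57BL/6 background, a mouse that depends on its diet for vitamin C. Gonadal cells had been sorted as negative for the germ cell marker Oct4, and 2 ng of their total RNA went into each library. In 5 embryos vitamin C had been supplied to physiological levels (supplied embryos 1 to 5), and in 5 it had been withdrawn in early gestation (withdrawn embryos 1 to 5). All 10 embryos lack Gulo, and no embryo with an intact gene was analysed here.

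The Chgb-rich embryos were supplied embryos 1, 2 and 3, so high Chgb and vitamin C supply cannot be told apart in them, and supplied embryos 4 and 5 are shown on their own where they matter. Chgb read 8.36 in supplied embryo 1, 12.42 in supplied embryo 2 and 10.76 in supplied embryo 3. It lay between 6.82 and 7.10 in the other 7, so the value just inside the limit was 8.36 and the one just outside was 7.10, in withdrawn embryo 1. Supplied embryos 2 and 3 share the first number in their sample names, as do withdrawn embryos 2 and 3, and no source says whether a shared number marks a litter. Because Chgb chose the embryos, it enters none of the counts below, and differences between the sets are given as descriptions without a test.

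Chromogranins are stored in the dense-core granules of neuroendocrine cells, and are known above all from the chromaffin cells of the adrenal medulla and from sympathetic neurons. Both cell types arise from the neural crest, whose cells migrate along the dorsal aorta close to the developing adrenal gland, mesonephros and gonad. They make catecholamines with tyrosine hydroxylase and dopa decarboxylase, load them into granules through vesicular monoamine transporters and release them by calcium-triggered exocytosis.

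Defining genes of the fetal gonad were present in all 10 samples, with overlapping values in both sets. Foxl2, a transcription factor of pregranulosa cells, read between 9.36 and 9.71 in the 3 Chgb-rich embryos and between 9.27 and 9.75 in the other 7. Wt1 (12.88 to 13.09), Gata4 (11.91 to 12.25) and Nr5a1 (11.18 to 11.52), which pattern the early gonad, spanned narrow ranges over all 10. Sample medians lay between 9.12 and 9.14. Read depth is unknown from rlog values, so no counting interval is given. In bulk RNA, a larger number of cells of a type and more RNA per cell cannot be told apart.

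All 3 Chgb-rich embryos lay above all 7 others for 304 of 13577 genes (2.24%) and below all 7 for 231 (1.70%). A difference of means of at least 0.2 was seen for 33 of the higher genes (0.243%) and 27 of the lower genes (0.199%). Only 5 genes (0.0368%), Dgkk, Rgs4, Olfm4, Sfrp2 and Syt1, were higher by at least 0.5, and 0 were lower by that much. Over all genes the median difference was -0.0019 and the 5th to 95th percentiles ran from -0.12 to 0.12.

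The largest differences were in a pair of intracellular signalling genes. Dgkk, a diacylglycerol kinase, read 7.11, 9.14 and 8.58 in supplied embryos 1, 2 and 3, 6.81 and 6.72 in supplied embryos 4 and 5, and between 6.64 and 6.93 in the withdrawn embryos. Rgs4, a regulator of G protein signalling, read 6.93, 8.44 and 8.13 in the same 3 embryos, 6.54 and 6.52 in supplied embryos 4 and 5, and between 6.53 and 6.74 in the withdrawn ones. In both genes supplied embryo 2 was highest, supplied embryo 3 was next, supplied embryo 1 stood only slightly above the rest, and supplied embryos 4 and 5 lay with or just below the withdrawn embryos. The difference of means between the sets was 1.5 for Dgkk and 1.24 for Rgs4, or 2.84-fold and 2.36-fold as 2 to the power of the rlog difference.

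The promoter stretches of Chgb and Rgs4 are shown because the levels of both followed this order of embryos. They are RefSeq sequences of build GRCm38.p6, and the authors aligned to mm9, so the positions belong to GRCm38.p6 only. Capitals mark TGACG or its reverse complement CGTCA, the short form of the cAMP response element, and the full form TGACGTCA holds both runs overlapping each other. The stretch of Chgb lies at chr2:132781559-132781588 on the plus strand, upstream of the RefSeq transcript start, with its full site beginning at position -72. The stretch of Rgs4 lies at chr1:169747643-169747892 on the minus strand, with short forms at -236 and -141 and the letters tataaa at -31.
Chgb: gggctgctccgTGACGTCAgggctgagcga
Rgs4: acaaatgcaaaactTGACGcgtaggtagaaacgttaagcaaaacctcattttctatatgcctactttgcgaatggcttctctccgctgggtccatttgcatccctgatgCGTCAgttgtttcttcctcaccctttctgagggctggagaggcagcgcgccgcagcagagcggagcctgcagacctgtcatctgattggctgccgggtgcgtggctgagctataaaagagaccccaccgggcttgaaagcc
Windows of the 250 bases before a RefSeq transcript start were found for 225 of the 304 higher genes and for 9576 genes of the table. TGACGTCA occurred in 6 of 280 windows of these higher genes (2.14%), in 2.49% of those of the table's genes and in 1.55% of all 32851 windows. The short form on either strand was in 23.6%, 25.5% and 17.8% of these windows. For both forms the share in the windows of the higher genes was no larger than in those of the table's genes. The letters TATAAA on the gene strand were in 5.36%, 3.64% and 7.59% of the same windows, so their share in the higher genes lay between that in the table and that in all windows. These counts describe letters in a window and not bound sites.

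Several genes of vesicle release and catecholamine handling followed the same order of embryos at lower levels, though fewer than all, with both supplied embryos 2 and 3 above the 8 others in 6 of 16 granule and exocytosis genes and 4 of 7 catecholamine genes (4.35% of all genes). Vamp2 (-0.06) and Stx1a (-0.08), which act in vesicle fusion, had a lower mean in the Chgb-rich set, as did Pts (-0.08), an enzyme of tetrahydrobiopterin synthesis. Syt1, the calcium sensor of exocytosis, read 6.57, 7.23 and 6.99 in supplied embryos 1, 2 and 3 and between 6.38 and 6.47 in the other 7, a difference of 0.50. Slc18a2, the vesicular monoamine transporter of neurons and chromaffin cells, read 6.05, 6.80 and 6.46 against 5.95 to 6.12. Ddc, dopa decarboxylase, read 5.96, 6.46 and 6.13 against 5.78 to 5.94. All 3 Chgb-rich embryos were thus above the rest for Syt1 and Ddc, while supplied embryo 1 was inside the range of the 7 for Slc18a2. Syp, the synaptic vesicle protein synaptophysin, read 6.00, 6.86 and 6.67 against 5.99 to 6.11, again with supplied embryo 1 among the 7. Cyb561, which carries electrons into chromaffin granules to regenerate ascorbate, read 6.55, 7.24 and 6.95 against 6.53 to 6.67. Gch1, the first enzyme of the synthesis of the hydroxylase cofactor tetrahydrobiopterin, read 5.87, 6.26 and 6.03 against 5.77 to 5.90. Maoa, which degrades monoamines, was higher in all 3 at 9.96, 9.93 and 9.94 against 9.70 to 9.90, but its 3 values did not follow the order of Chgb.

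**Figure D1:**
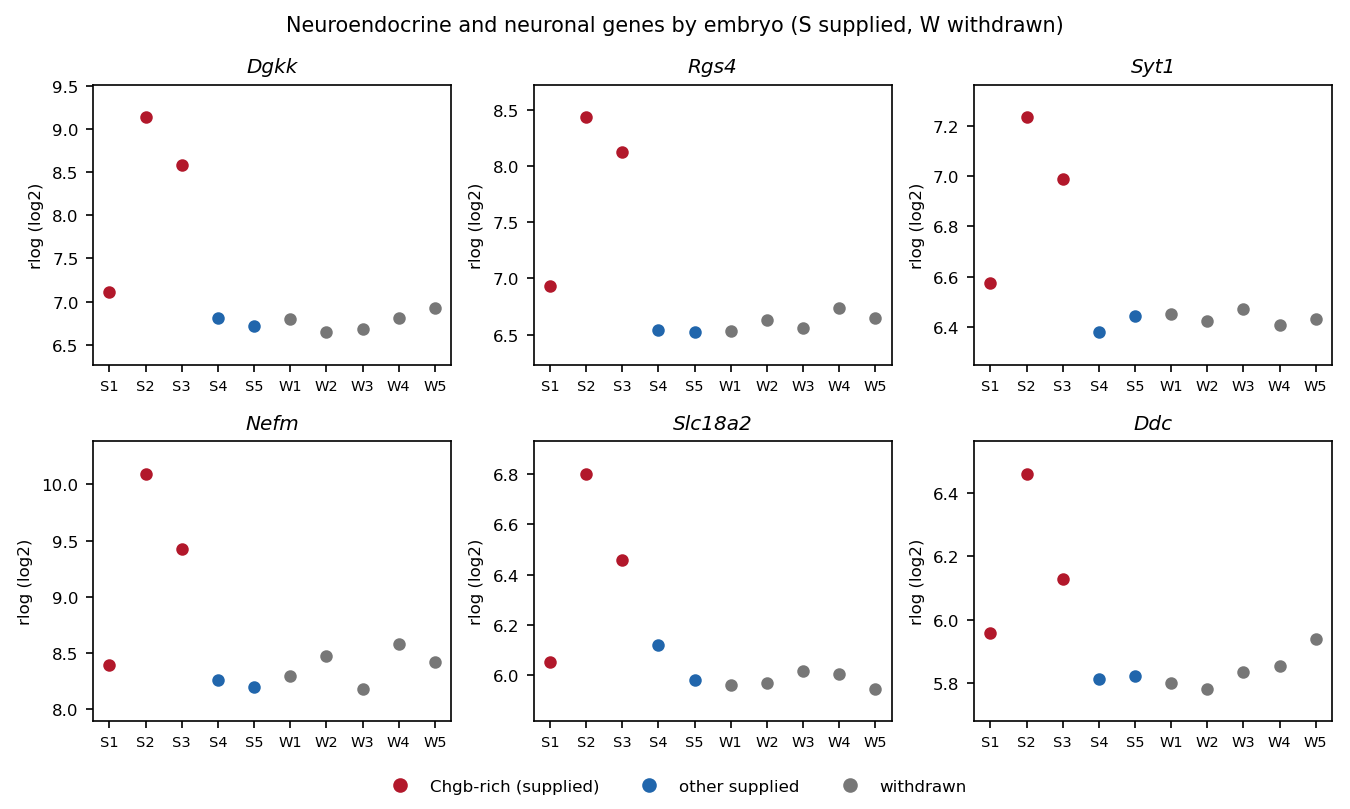
Rlog level (log2, vertical axis of each panel) of Dgkk, Rgs4, Syt1, Nefm, Slc18a2 and Ddc in each embryo (horizontal axis, S supplied and W withdrawn, 1 point per embryo). In all 6 genes supplied embryo 2 is highest and supplied embryo 3 second, while supplied embryo 1 is close to the 7 Chgb-poor embryos.

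Axonal and cytoskeletal genes were mostly high in supplied embryos 2 and 3 alone. Nefm, the medium neurofilament chain, read 10.10 and 9.42 in them, 8.39 in supplied embryo 1 and between 8.18 and 8.57 in the other 7. Its light partner Nefl read 7.72 and 7.27 in them, 6.69 in supplied embryo 1 and between 6.66 and 6.92 in the 7. Nfasc, an adhesion molecule of the axon initial segment, read 8.29 and 7.55, with 6.89 in supplied embryo 1 and 6.75 to 6.93 in the 7. In these 3 genes supplied embryo 1 could not be separated from the Chgb-poor embryos. Tubb3, the neuronal beta-tubulin, was high in supplied embryo 2 at 6.90, with 6.12 in supplied embryo 3, 5.99 in supplied embryo 1 and 5.89 to 6.01 in the 7. Gap43, a growth cone protein, separated all 3 at 7.0, 7.26 and 7.23 against 6.79 to 6.93. Dpysl3, a collapsin response mediator of axon guidance, did so at 10.16, 10.81 and 10.33 against 9.84 to 10.07, and so did the motor protein gene Kif5a at 6.71, 7.23 and 6.89 against 6.56 to 6.67.

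Against all 8 other embryos, supplied embryos 2 and 3 were both higher for 591 genes (4.35%) and both lower for 505 (3.72%). A difference of means of at least 0.2 was seen for 112 of the higher genes (0.825%) and 66 of the lower genes (0.486%). Compared in this way, Dgkk was higher by 2.04, Rgs4 by 1.64 and Nefm by 1.42, which are 4.13-fold, 3.13-fold and 2.67-fold. The 10 genes with the widest gap between this pair and the 8 others were Dgkk, Rgs4, Nefm, Nfasc, Syp, Syt1, Tub, Diras2, Ppfia2 and Nefl. Of these, Ppfia2 encodes a liprin of presynaptic active zones.

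The 6 lists of sympathoadrenal regulators, catecholamine genes, secretory granule genes, neuropeptides, neuronal cytoskeleton and neuronal receptors name 128 genes, of which 75 were analysed here. Of the 75, all 3 Chgb-rich embryos were above all 7 others in 10 (13.3%, against 2.24% of all genes) and below in 0 (against 1.70%). Supplied embryos 2 and 3 were both above all 8 others in 26 (34.7%, against 4.35% of all genes) and below in 0 (against 3.72%), with a median difference of 0.10. Supplied embryo 2 exceeded supplied embryo 3 in 24 of these 26. Supplied embryo 1 lay above all 7 Chgb-poor embryos in 7 of the 26, inside their range in 18 and below it in 1. The mean deviation of the 75 genes from their means in the 7 Chgb-poor embryos was 0.22 in supplied embryo 2 and 0.11 in supplied embryo 3. In supplied embryo 1 it was 0.014, and in the other 7 it lay between -0.025 and 0.029. On this measure supplied embryo 1 lay inside the range of the Chgb-poor embryos.

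Within the 6 lists the pair stood above the 8 others in 9 of 22 cytoskeletal genes, 6 of 16 granule genes, 4 of 7 catecholamine genes, 4 of 18 receptors and channels, 3 of 9 sympathoadrenal regulators and 0 of 3 neuropeptides. The regulator Hand2, a transcription factor of sympathetic and limb development that is also expressed in stroma, read 10.43, 11.17 and 10.70 in supplied embryos 1, 2 and 3 and between 10.07 and 10.49 in the 7. Tfap2b, a neural crest transcription factor, read 5.38, 5.92 and 5.45 against 5.36 to 5.41. Gata3, which maintains sympathetic neurons, was high in supplied embryo 2 alone at 8.70, with 8.13 in supplied embryo 3, 7.88 in supplied embryo 1 and 8.03 to 8.18 in the 7. Ret, a receptor of neurotrophic ligands, overlapped in supplied embryo 1 at 7.37 and read 7.55 and 7.44 in the pair against 7.12 to 7.38. The peptide gene Npy read 7.71, 7.47 and 7.91 in supplied embryos 1, 2 and 3, and so did not follow the order of Chgb. Penk, another peptide gene, had a lower mean in the Chgb-rich set (-0.20). The defining genes Th, Dbh, Pnmt, Slc18a1, Chga and Scg2 were not analysed here. The labels name no neuroendocrine cell, and none is named here from the remaining genes.

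**Figure D2:**
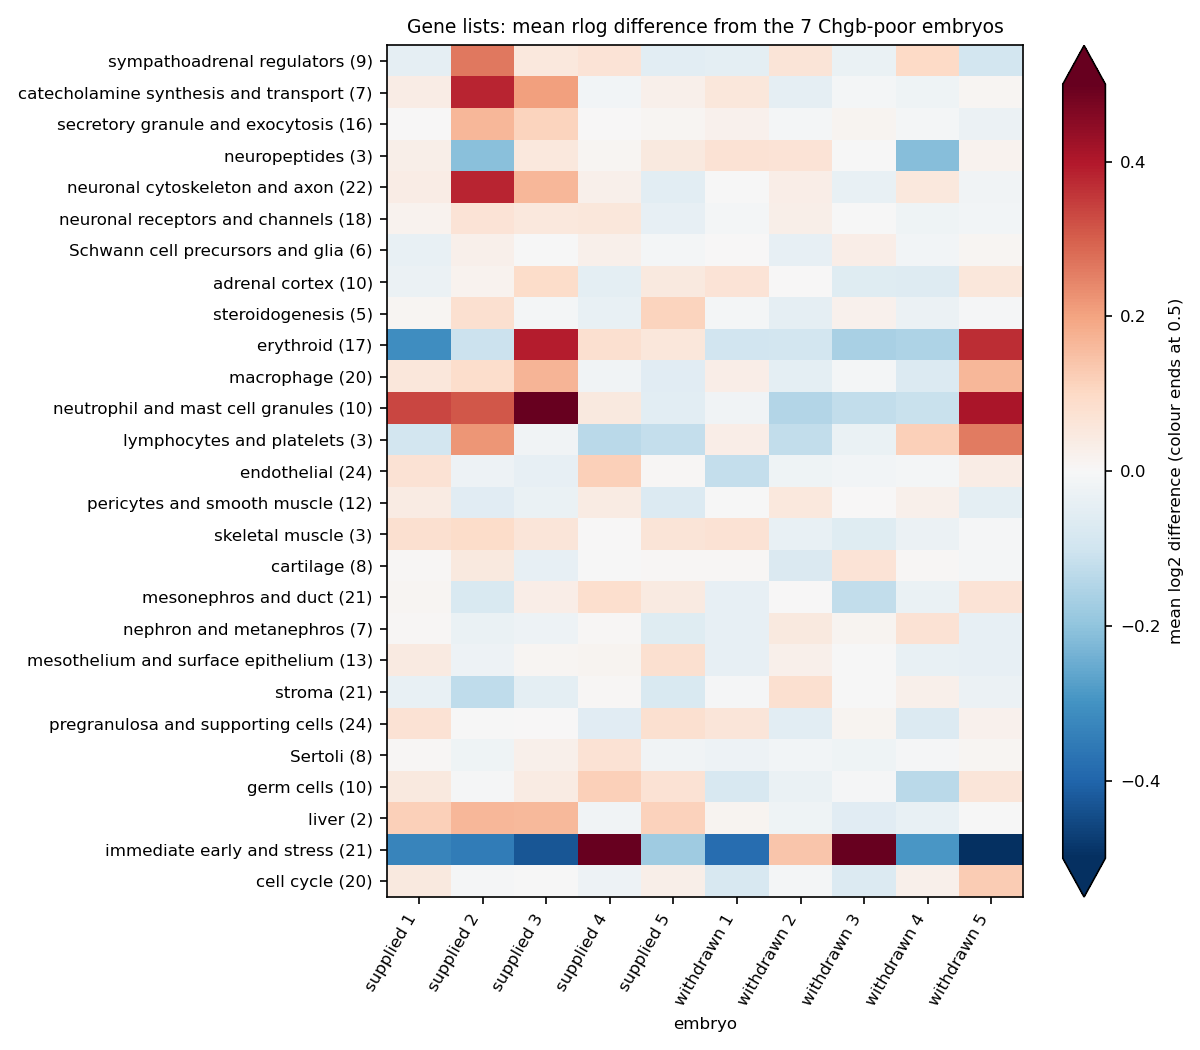
Mean deviation (log2) of the genes of each list from their means in the Chgb-poor embryos, with lists as rows and embryos as columns. The neural and neuroendocrine lists other than neuropeptides are highest in supplied embryo 2, and the neuropeptide list is low there (-0.21). The neutrophil and mast cell list is highest in supplied embryo 3. The immediate early list is about equally high in supplied embryo 4 (0.659) and withdrawn embryo 3 (0.657).

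The lists of the adrenal cortex, steroidogenesis and glia held 21 measured members. Of these, 0 were above the 7 others in all 3 Chgb-rich embryos (against 2.24% of all genes) and 0 below (against 1.70%). With 21 genes, 0 is near those shares. In both supplied embryos 2 and 3, 2 were above the 8 others (9.52%, against 4.35% of all genes) and 1 was below them (against 3.72%). The median difference was 0.029. The corticotropin receptor gene Mc2r, of the adrenal cortex list, read 4.78, 4.90 and 4.83 in supplied embryos 1, 2 and 3 against 4.75 to 4.79 in the 7. The cortical enzyme genes Cyp21a1 and Cyp11b1 and the glial genes Sox10 and Foxd3 were not analysed here.

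Neutrophil granule genes were also higher in the Chgb-rich embryos, in a different order and with a withdrawn embryo beside them. Ltf, which encodes the iron-binding granule protein lactoferrin, read 8.50, 8.32 and 9.34 in supplied embryos 1, 2 and 3, 7.70 and 7.65 in supplied embryos 4 and 5, between 7.31 and 7.55 in withdrawn embryos 1 to 4, and 8.55 in withdrawn embryo 5. Ngp, another granule protein gene, read 8.16, 8.08 and 8.94 in supplied embryos 1 to 3, 8.22 in withdrawn embryo 5 and between 7.10 and 7.52 in the other 6. Supplied embryo 3 was highest, and withdrawn embryo 5, which had Chgb at 7.05 and Dgkk at 6.93, lay beside supplied embryos 1 and 2. The difference of means was 1.08 for Ltf, or 2.12-fold, and 0.99 for Ngp.

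Of 10 measured neutrophil and mast cell genes, 2 (S100a8 and Prtn3) were above all 7 in all 3 Chgb-rich embryos, against 2.24% of all genes. With withdrawn embryo 5 left out after its values were seen, 7 of the 10 were above the other 6 embryos, against 3.23% of all genes. Those values include these same 10 genes, so the exclusion itself raises the count, and 7 cannot be set against that share. Supplied embryo 3 was highest in 9 of 10, and withdrawn embryo 5 reached or passed the lowest of the 3 in 8 of 10. The mean deviation of the list was 0.33, 0.31 and 0.82 in supplied embryos 1, 2 and 3 and 0.41 in withdrawn embryo 5, against -0.15 to 0.05 in the other 6. S100a8, a calcium-binding protein of neutrophils, read 5.88, 6.15 and 6.27 in supplied embryos 1 to 3, 5.87 in withdrawn embryo 5 and 5.68 to 5.81 in the rest. Olfm4, a glycoprotein of a neutrophil subset, read 7.48, 7.42 and 8.15 against 6.76 to 7.34, and the highest of the 7 was again withdrawn embryo 5.

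The macrophage genes differed less. Of its 20 measured genes, 3 (Lyz2, Itgam and C1qa) lay above all 7 (against 2.24% of all genes) and 18 had a positive difference, with a median of 0.084. Lyz2, the lysozyme of macrophages and neutrophils, read 7.51, 7.63 and 7.93 against 7.11 to 7.44. Itgam, an integrin chain that neutrophils carry too, read 7.33, 7.34 and 7.61 against 7.03 to 7.28. C3, the central complement component, which is outside the list, read 7.24, 7.19 and 7.46 against 6.78 to 7.12. In Lyz2, Itgam and C3 supplied embryo 3 was highest, while C1qa, a complement component made by macrophages, was lowest there of the 3, at 6.98, 6.95 and 6.93 in supplied embryos 1, 2 and 3 against 6.81 to 6.93 in the 7.

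Red cell genes did not follow Chgb. Of 17 measured erythroid genes, 0 separated the sets, against 2.24% of all genes higher and 1.70% lower. With 17 genes, 0 is near those shares. The median difference was -0.0025. Their mean deviation was -0.31 in supplied embryo 1, -0.11 in supplied embryo 2, 0.39 in supplied embryo 3 and 0.37 in withdrawn embryo 5. The embryonic globin gene Hbb-y read 14.00, 14.33 and 15.37 in supplied embryos 1 to 3 and 15.39 in withdrawn embryo 5. The erythroid and granule lists were therefore both high in supplied embryo 3 and withdrawn embryo 5, while in supplied embryos 1 and 2 the granule list was high and the mean of the erythroid list was below 0.

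**Figure D3:**
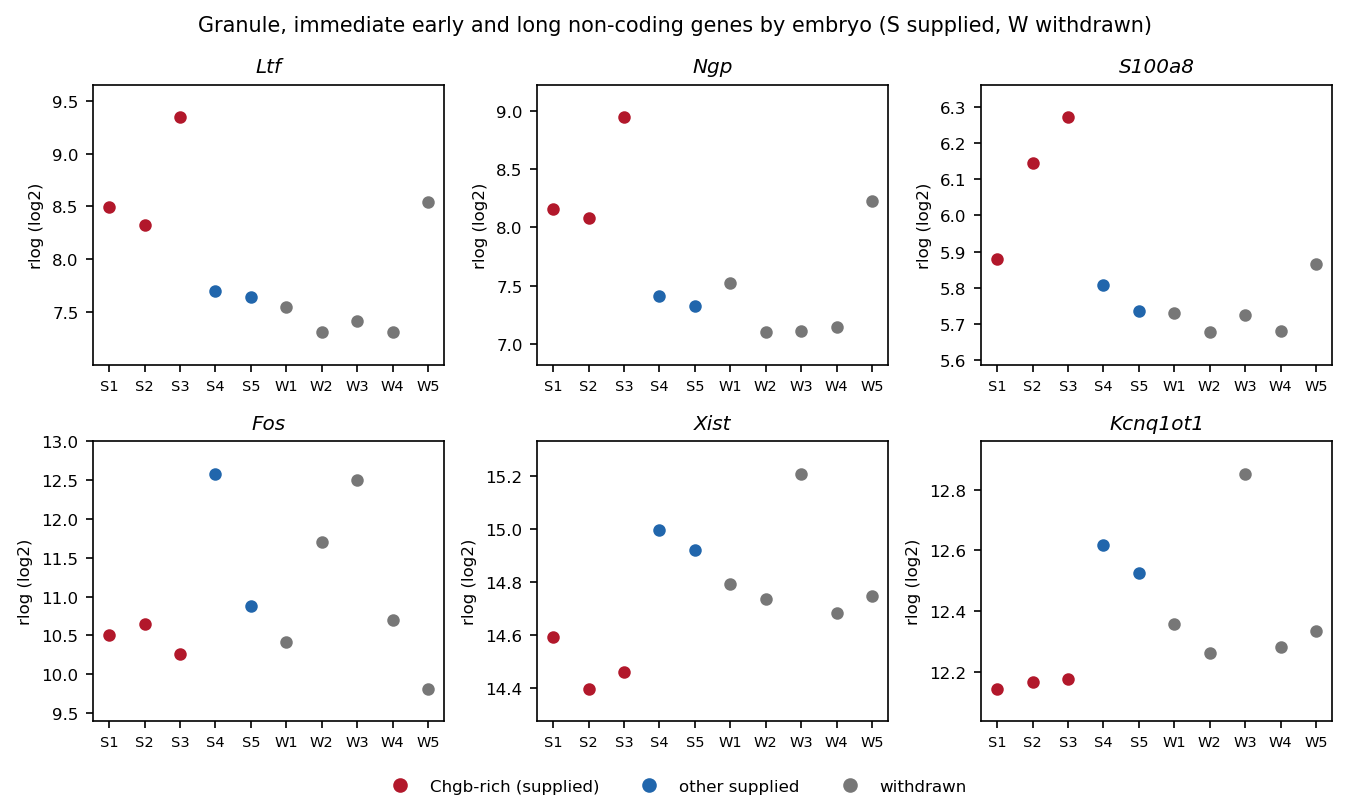
Rlog level (log2, vertical axis of each panel) of Ltf, Ngp, S100a8, Fos, Xist and Kcnq1ot1 in each embryo (horizontal axis, S supplied and W withdrawn, 1 point per embryo). Ltf and Ngp are highest in supplied embryo 3 with withdrawn embryo 5 beside supplied embryos 1 and 2, Fos is high in 3 Chgb-poor embryos, and Xist and Kcnq1ot1 are lowest in the 3 Chgb-rich embryos.

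The lists for pregranulosa cells, stroma, mesothelium, mesonephros, endothelium and pericytes held 113 measured genes, with a median difference of -0.023. All 3 Chgb-rich embryos were above the 7 others in 1 of them (0.885%, against 2.24% of all genes) and below in 0 (against 1.70%). The 1 higher gene was Rgs5, a regulator of G protein signalling typical of pericytes. It read 7.56, 7.98 and 7.89 in supplied embryos 1 to 3 against 7.28 to 7.47. Only 2 of the 12 measured pericyte genes had a positive difference, so Rgs5 did not move with its list. Supplied embryos 2 and 3 were both above the 8 others in 4 of the 113 genes (3.54%, against 4.35% of all genes) and both below in 7 (against 3.72% of all genes), of which 6 belong to the 21 stroma genes. Within the pregranulosa list the mean deviation ran from -0.07 to 0.08 over the 10 embryos.

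Some genes outside these lists separated all 3 Chgb-rich embryos by similar amounts, without the steep order of Dgkk and Rgs4, as the following examples show. Sfrp2, a secreted WNT modulator, read 11, 11.15 and 11.14 in supplied embryos 1, 2 and 3, 10.67 and 10.44 in supplied embryos 4 and 5, and 10.26 to 10.83 in the withdrawn embryos. Nrp2, a co-receptor of semaphorins and VEGF, read 10.18, 10.40 and 10.27 against 9.79 to 10.07. Cox4nb, now named Emc8, a subunit of the endoplasmic reticulum membrane complex, read 10.39, 10.40 and 10.43 against 10.16 to 10.23. Supplied embryo 1 was as far from the Chgb-poor embryos as the other two for Cox4nb, unlike for Dgkk or Nefm. Of the 304 higher genes, 77 followed the order of Chgb within the 3 embryos (0.567% of all genes).

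Set against the 5 withdrawn embryos alone, all 3 Chgb-rich embryos were higher for 443 genes (3.26%) and lower for 379 (2.79%), and against supplied embryos 4 and 5 alone they were higher for 2254 and lower for 2250 (16.6% each). Supplied embryos 4 and 5 both lay inside the withdrawn range for 167 of the 304 (1.23% of all genes), and both lay above all 5 withdrawn embryos for 6 (0.0442%). One of the 6 is Rps4y2, now named Rps4l and annotated as a processed pseudogene of a ribosomal protein gene, which may share reads with its near-identical relatives. It read 10.06, 10.02 and 10.14 in supplied embryos 1 to 3, 9.93 and 9.72 in supplied embryos 4 and 5, and 9.48 to 9.62 in the withdrawn embryos.

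Supplied embryo 1, with the lowest Chgb of the 3, was the highest of all 10 embryos for 1153 genes (8.49%) and the lowest for 1265 (9.32%). The 8 genes with the widest gap above the other 9 were Pappa2, Olfm1, Sspn, 2210021J22Rik (now Cdpf1), Lysmd2, B2m, Nuak2 and Lhx2. None of these 8 is in the neuronal or blood lists. Pappa2, a protease of insulin-like growth factor binding proteins, read 9.82 in supplied embryo 1 and 8.92 to 9.58 in the others.

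**Figure D4:**
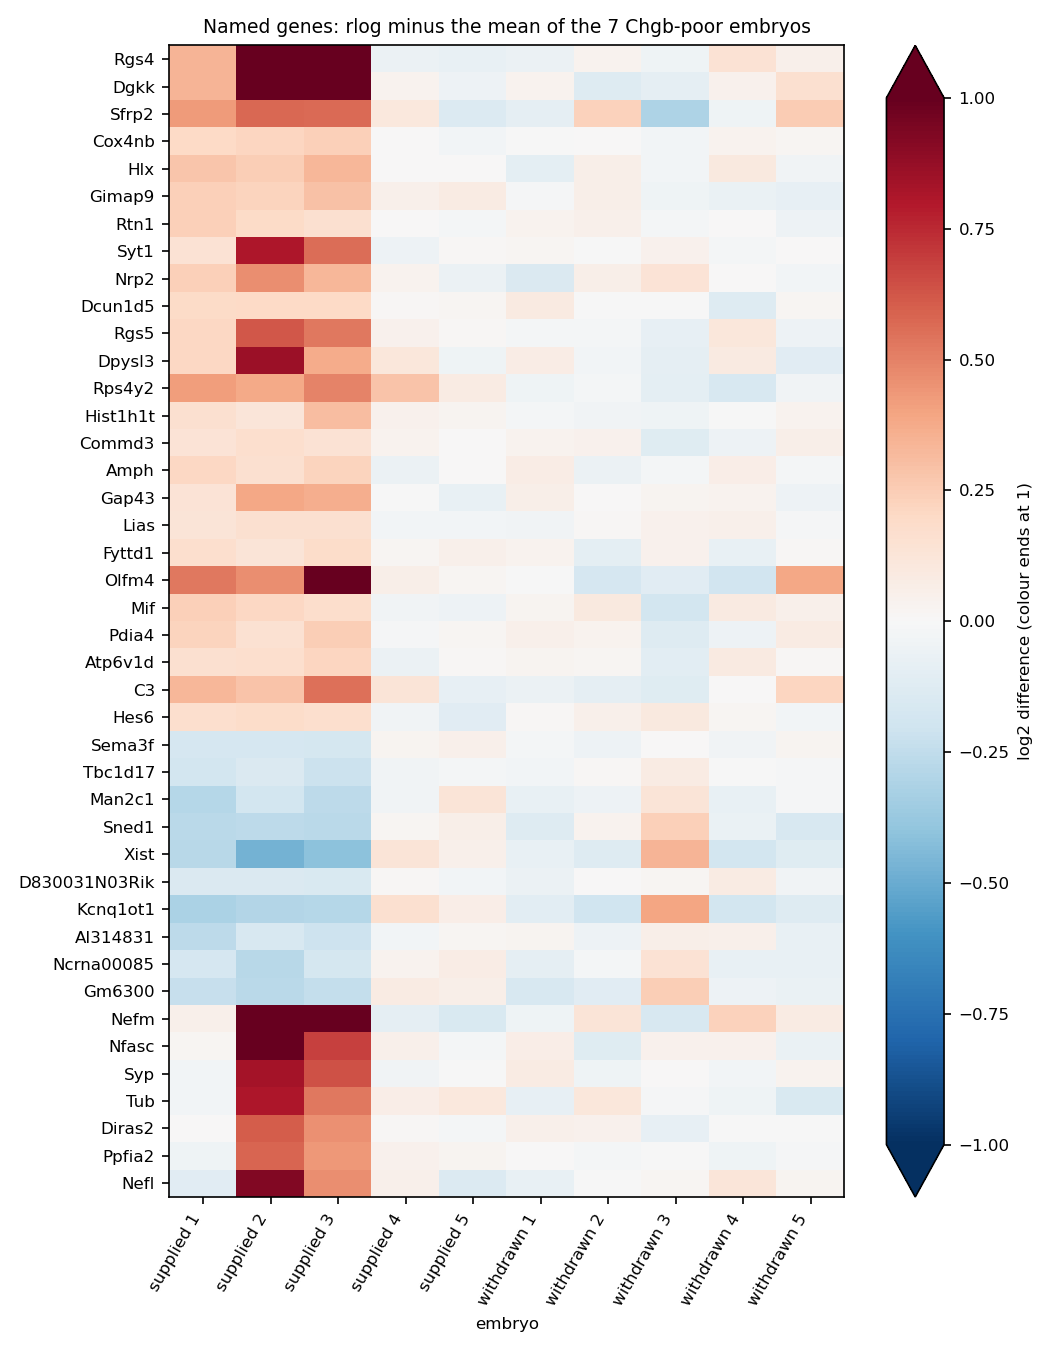
Deviation (log2) of each named gene from its mean in the Chgb-poor embryos, with genes as rows and embryos as columns. The neuronal genes are high in supplied embryos 2 and 3, while genes such as Cox4nb are about equally high in all 3 Chgb-rich embryos.

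The lower genes held a larger share of RNAs that code for no protein than the higher ones. Of the genes with a known type, 19 of 228 lower genes (8.33%) and 2 of 303 higher genes (0.660%) were not protein-coding, against 3.21% of all genes. Xist, the RNA that coats the inactive X chromosome, read 14.59, 14.40 and 14.46 in supplied embryos 1, 2 and 3, 15 and 14.92 in supplied embryos 4 and 5, and 14.68 to 15.21 in the withdrawn embryos. Kcnq1ot1, an imprinted antisense transcript, read 12.14, 12.17 and 12.18 in supplied embryos 1 to 3, 12.62 and 12.53 in supplied embryos 4 and 5, and 12.26 to 12.85 in the withdrawn embryos. For both RNAs the 3 Chgb-rich embryos were lowest, and the highest were withdrawn embryo 3 and supplied embryo 4. Among protein-coding genes, Sema3f, a secreted guidance cue that binds Nrp2, read 10.45, 10.45 and 10.44 against 10.57 to 10.67, a difference of -0.17. Sned1, a matrix protein gene, read 11.04, 11.05 and 11.04 against 11.15 to 11.55.

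Immediate early genes, which cells switch on within minutes of stimulation or handling, had a lower mean in the Chgb-rich set and were highest in Chgb-poor libraries. All 21 listed genes had a lower mean in the Chgb-rich embryos, with a median difference of -0.36. Of these, 0 separated the sets, against 2.24% of all genes higher and 1.70% lower. Fos read 10.50, 10.64 and 10.26 in supplied embryos 1 to 3, 12.58 and 10.88 in supplied embryos 4 and 5, and 10.41, 11.70, 12.50, 10.70 and 9.81 in withdrawn embryos 1 to 5. Supplied embryo 4 or withdrawn embryo 3 was highest for each of the 21. Without supplied embryo 4 and withdrawn embryos 2 and 3, the 3 with the highest Fos, the median difference was -0.016, with 12 genes lower and 9 higher. Fos is one of the 21, so leaving these embryos out lowers the difference partly by construction.

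Withdrawal was then compared with supply among the 7 Chgb-poor embryos. By limma with Benjamini-Hochberg adjustment, 0 of 13578 genes passed an adjusted p of 0.05 between 5 withdrawn and 2 supplied embryos (0%), while 874 had an unadjusted p under 0.05 (6.44%), 561 of them lower on withdrawal (4.13%) and 313 higher (2.31%). The values of these 7 embryos also took part in choosing the genes above, so for those genes the differences are given as a description with no test.

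For Dgkk the difference between withdrawn and supplied embryos was 0.012 in the 7 and -0.90 in all 10. For Rgs4 it was 0.092 in the 7 and -0.69 in all 10. Nefm differed by 0.17 in the 7 and by -0.48 in all 10. The differences of these 3 genes in all 10 embryos thus had the opposite sign to those among the 7. For Dgkk the difference among the 7 was small, and it turned negative without supplied embryo 5 (-0.034) or withdrawn embryo 5 (-0.026). The 2 comparisons share the withdrawn embryos and supplied embryos 4 and 5.

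In all 10 embryos, limma called 3 genes (0.0221%), all lower on withdrawal, and 719 had an unadjusted p under 0.05 (5.30%), 386 of them lower (2.84%) and 333 higher (2.45%). Of the 304 higher genes, 301 were lower in the withdrawn embryos with a median of -0.065, a direction that the choice of the genes largely fixes, and 2 were among the 3 calls. The values of these embryos also chose the 304 genes, so these 2 calls add no support to that choice. One was Rps4y2, with a difference of -0.41 in all 10 (limma adjusted p = 0.0394) and -0.26 in the 7. This limma call of Rps4y2 was lost without a variance trend (adjusted p = 0.183), after quantile normalization (0.0698), with a mean of at least 7 (0.0611), under the replicate block (0.121) and on leaving out any 1 embryo but supplied embryo 5 (0.0510 to 0.163). The other was 1700106J16Rik, with -0.22 in all 10 (limma adjusted p = 0.0288) and -0.15 in the 7. Its limma call was lost without a variance trend (adjusted p = 0.289), after quantile normalization (0.0698) and without any 1 of supplied embryos 1, 2 and 3 or withdrawn embryos 1, 2, 4 and 5 (0.0516 to 0.146). Both kept their sign without the Chgb-rich embryos, where limma called 0 genes. The 7 had taken part in both calls and in choosing the 304 genes, so the kept sign adds no support.

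**Figure D5:**
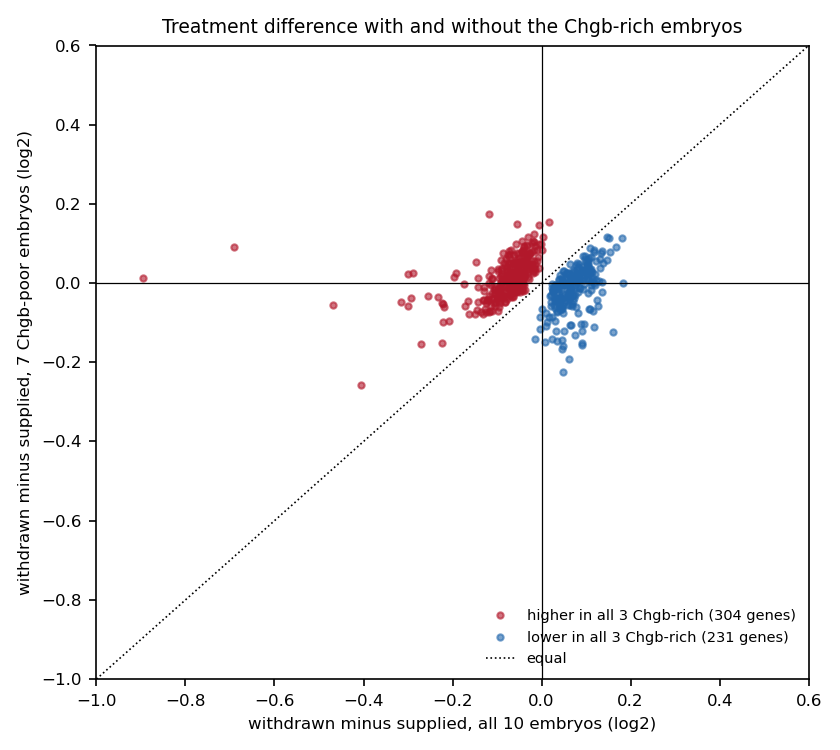
Difference of withdrawn minus supplied embryos (log2) for each gene in all 10 embryos (horizontal axis) and in the 7 Chgb-poor embryos (vertical axis). Dgkk, at -0.90 in all 10 and 0.012 in the 7, and Rgs4, at -0.69 and 0.092, lie far to the left and close to 0 on the vertical axis.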

How the data were processed

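Expression was read from 1 table of regularised log2 values (rlog) that the authors deposited for 10 libraries. The submitters' processing notes list TopHat2 2.1.1, Trim Galore 0.4.0 and DESeq2 1.20.1 and name mm9 as the build. The counting tool, the strand setting and the depth are not given in the sources used here, and rlog values allow no count test. The library kit was SMARTer pico total RNA, per the labels' protocols. The members and gene lists were chosen with earlier results of these data known.

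A gene was called higher (lower) where all 3 Chgb-rich embryos lay above (below) all 7 others, with no test, since Chgb in the same embryos chose the sets. Folds are 2 to the power of rlog differences and understate changes of weak genes. Named genes were the 25 higher and 10 lower genes with the widest gap, the 10 with the widest gap for supplied embryos 2 and 3, the 8 for supplied embryo 1, and, in each of 28 lists (27 with rows), separating members and those of largest difference. Gata3, Nefl, Hbb-y, Mc2r and Npy, among other list members, were chosen after their values were seen. Withdrawn and supplied embryos were compared with limma 3.58.1 (R 4.3.3; trend, Benjamini-Hochberg adjustment), tested on simulated data. Nothing says which embryos share a litter, so p-values measure only the spread between these samples. Alternatives were normalization, filters, variance settings, a replicate block and leaving out libraries. Promoters and gene types came from RefSeq GRCm38.p6 and GENCODE M21, another build than mm9, matched by symbol. Plots used Python 3.11.15.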

Additional observations from a re-analysis of the deposited data

Results flagged for a closer look

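In 170 groups of 5 embryos checked for 1 value far from the rest, 17 were found. Chance alone would give about 5% of groups for genes picked without regard to their values. Many genes checked here were picked by their values, such as Pappa2, Lysmd2 and Nuak2 for the gap of supplied embryo 1. The count of 17 therefore cannot be set against that share. Supplied embryo 2 stood apart in Tubb3 (6.898, nearest 6.121). Withdrawn embryo 5 stood above the other withdrawn embryos in Ltf (8.546, nearest 7.551) and S100a8 (5.866, nearest 5.731), and in the mean deviation of the neutrophil and mast cell list (0.4065) and the erythroid list (0.3682). Withdrawn embryo 3 was high in Xist (15.21, nearest 14.79), Kcnq1ot1 (12.85, nearest 12.36) and Gm6300 (9.765, nearest 9.467), and low in Mif (11.36, nearest 11.57). Supplied embryo 1 was high in Pappa2 (9.823, nearest 9.284), Lysmd2 (8.513, nearest 8.268) and Nuak2 (7.701, nearest 7.508). Supplied embryo 4 was high in Fos (12.58, nearest 10.88) and in the mean deviation of the immediate early list (0.6587), and apart in the liver list (-0.01597), which rests on 2 genes. In the neuropeptide list, of 3 genes, supplied embryo 2 (-0.2094) and withdrawn embryo 4 (-0.2129) were low.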

How the results depend on the processing

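The 304 higher and 231 lower genes depend on which embryos they are set against. Against supplied embryos 4 and 5 alone, 2254 were higher and 2250 lower, and against the 5 withdrawn embryos 443 and 379. With a difference of at least 0.2 they were 33 and 27, with at least 0.5 they were 5 and 0, and without the 3 embryos of highest Fos they were 497 and 416. Leaving out 1 embryo gave 335 to 754 higher and 262 to 652 lower genes. Fewer embryos must separate more genes, so all of the main genes stayed in these counts. The counts passed 1.5 times the main one without supplied embryo 1 (754 and 652), 2 (559 and 505) or 3 (566 and 531), without withdrawn embryo 1 (594 and 486), and, for lower genes, without withdrawn embryo 5 (351). Median centring shared 263 and 202 genes with the main counts, and quantile normalization 251 and 190. For supplied embryos 2 and 3, the counts with a difference of at least 0.2 were 112 and 66, and leaving out 1 embryo gave 632 to 1762 and 553 to 1807. Of 58 named genes under 15 settings, 0 reversed, and 7 sign changes fell in 6 genes of small difference. A reversal was counted only for genes with no overlap between the sets. For them leaving embryos out cannot change the sign, so only median centring and quantile normalization could have reversed any. Of the 27 list medians under the same settings, 56 sign changes fell in 16 lists and 15 values moved, so the signs of the smaller list medians are not stable.

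Among the 7 Chgb-poor embryos, a replicate block gave 39 calls, against 0, and leaving out 1 withdrawn embryo gave 0 to 1. The block matched supplied and withdrawn embryos by their numbers 1 to 5 used here, not by the first number in the sample names. Among the 7, only numbers 4 and 5 held both a supplied and a withdrawn embryo, so the blocked differences rest on those pairs alone. In all 10 embryos the block gave 2 calls, against 3. Same-numbered supplied and withdrawn embryos did not all deviate together (correlations 0.172, -0.181, -0.364, -0.091 and -0.103), and only supplied embryo 1 correlated best with its own number, so across the groups they are treated as sharing only a number. Within a group, supplied embryos 2 and 3 correlated at 0.138, and withdrawn embryos 2 and 3 at 2.77e-05. Deviations were taken from each group's own mean, which by itself pushes correlations within a group below 0. The values within a group therefore cannot be set against those across groups. In all 10, the calls were 1 without a variance trend, 5 with robust variance, 1 after quantile normalization, 1 with a mean of at least 7, 0 in the 7 Chgb-poor embryos and 0 to 4 on leaving out 1 embryo. The differences of Dgkk, Rgs4, Syt1 and Nefm in all 10 reversed to 0.012, 0.092, 0.025 and 0.17 without the Chgb-rich embryos. Among the 7, leaving out 1 embryo moved Dgkk between -0.034 and 0.058 and Syt1 between -0.0079 and 0.058. The causes of these changes were not tested. With 1 library per embryo, unknown depth and shrunken values, small differences of weak genes cannot be resolved.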
